A study of Mus musculus with 15 samples.

Results

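Kidney RNA of generation 3 Tert-/- mice given folic acid (here G3 folic acid, 4 libraries) was set against kidney RNA of Tert+/+ mice given the same dose (here WT folic acid, 3 libraries). These 7 libraries were chosen by the genotype and treatment in their labels, out of 15 in the series. Of 19602 genes in the table, 14651 reached a normalised count of 10 in 3 or more of the 15 libraries, and these were tested. Mice of 6 to 8 weeks received 1 intraperitoneal injection of folic acid at 125 mg/kg, and whole kidneys, flushed with cold saline, were collected at day 14. The other 8 libraries came from G3 Tert-/- kidneys (4) and Tert+/+ kidneys (4) of mice injected with the bicarbonate vehicle (0.3 M, 200 ul), and they gave the side values after vehicle. Both genotypes carried no other allele named in the labels, and no source used here gives the strain, the litters or the deleted part of Tert. Values are counts of 3' end reads divided by the authors' size factor for each library, and library numbers such as G3 folic acid 1 only name a library. The title of the series puts the question to which the comparison belongs: whether kidneys with short telomeres react more strongly to folic acid, with scarring and epithelial to mesenchymal change.

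Tert encodes the catalytic subunit of telomerase, which adds repeats to chromosome ends, and mice bred without it lose telomere length with each generation. A high dose of folic acid injures kidney tubules, above all the proximal tubule, which takes back sugars, amino acids, ions and filtered proteins from the primary urine. Repair follows over days, and where it fails, inflammation and scar matrix persist between the tubules. In whole kidney RNA, fewer cells of a type and less RNA per cell cannot be told apart.

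The 7 folic acid libraries held 5383496 to 6511418 reads assigned to genes, and 1 read was worth 0.895 to 1.13 normalised counts. Markers of the proximal tubule, thick ascending limb, collecting duct, podocytes and endothelium were all detected, and the 16 proximal tubule markers summed to 99938 to 255327 normalised counts in G3 folic acid, against 147779 to 185749 in WT folic acid. Y-linked RNA (Ddx3y, Kdm5d, Eif2s3y and Uty) did not follow the labelled sex. As a share of the highest library it was 0.800, 0.0173, 0.771 and 0.315 in G3 folic acid 1 to 4, against 0.0340, 0.0166 and 0.0110 in WT folic acid 1 to 3. G3 folic acid 1 and 3 therefore carried Y-linked RNA and almost no Xist (6.35 and 5.99), G3 folic acid 4 carried both kinds (Xist 2006), and G3 folic acid 2 carried Xist alone (3850), as did all 3 WT folic acid libraries (3147 to 3790.3). The Y share was 0.00113 to 0.00873 in G3 vehicle and 0.327 to 1 in WT vehicle. Labelled male were G3 folic acid 1 and 2, WT folic acid 2 and 3 and G3 vehicle 1, 2 and 4. All other libraries were labelled female, among them G3 folic acid 3 and 4 and all of WT vehicle. Whether samples or labels, and with them genotypes, were exchanged was not tested, nor whether G3 folic acid 4 held mixed material. WT folic acid 1 stood apart: the single gene Gm42418 took 23.0% of its counts, against 6.26 to 7.94% in the other 6 libraries. WT folic acid 2 and 3 were the closest pair within either group, with a mean chi-square per gene of 2.81 against 8.82 to 64.3 for the other pairs, a difference above sampling noise, and whether they came from 1 animal was not tested. The titles of all G3 folic acid libraries come from 1 run of numbers and those of all WT folic acid libraries from an earlier run, so genotype after folic acid and this title series cannot be told apart.

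More genes were lower than higher in G3 folic acid kidneys, and the 2 smallest adjusted p belonged to the transporter genes Slc10a2 and Slc9a8, both lower in G3. Below, fall, decrease and increase set G3 beside WT after folic acid, and do not mean a change from vehicle. With limma on log2(normalised count + 1) and Benjamini-Hochberg adjusted p under 0.05, 337 of 14651 genes passed (2.30% of the genes tested): 105 higher (0.717%) and 232 lower (1.58%) in G3 than in WT. At an unadjusted p under 0.05 there were 2993 genes. The median difference was log2 1.05 for the higher genes and log2 -0.87 for the lower genes, beside 0.01 for all genes tested, and 58 higher and 89 lower genes differed by over 2-fold. In 326 of the 337 genes the 2 groups did not overlap, which was the case for 17.3% of all genes tested (7.84% with every G3 library above every WT library and 9.44% below). The same fit with the Y share as a term called 17 genes (0.116%), 3 higher (0.0205%) and 14 lower (0.0956%), of which 15 were among the 337. All 337 kept their sign in that fit, with medians of log2 0.82 and -0.72. Since they were chosen by their difference in the same libraries, the kept signs and the medians are in part set by that choice.

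**Figure D1:**
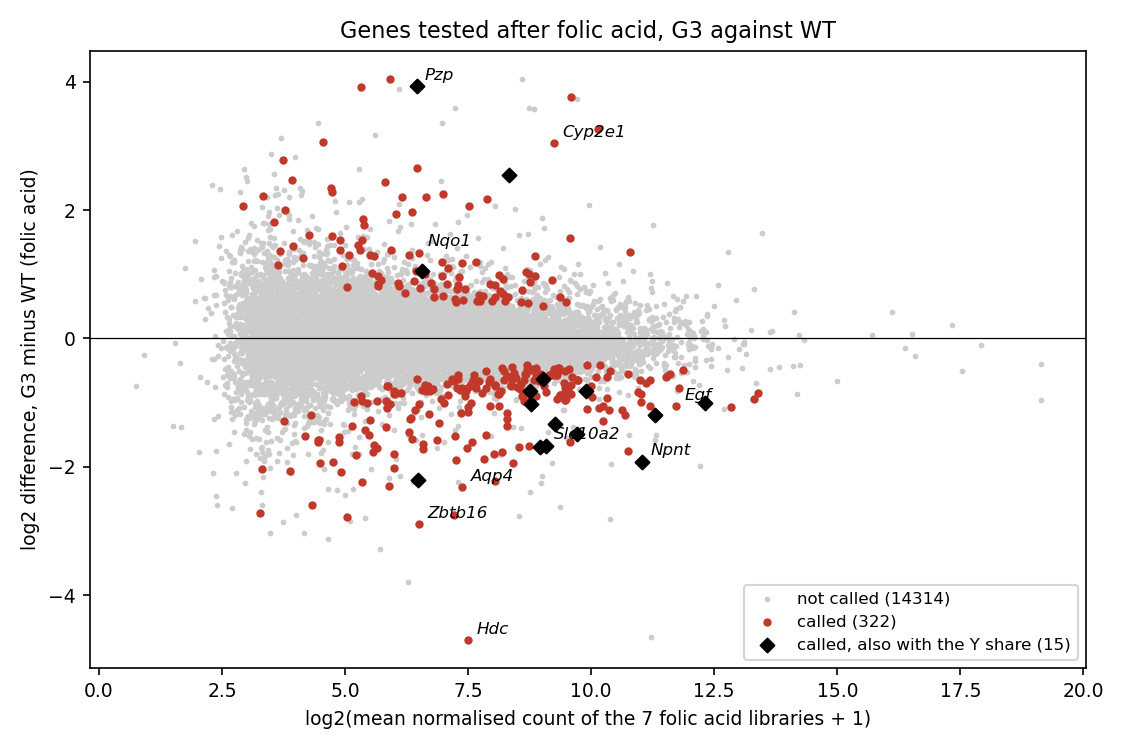
Each point is 1 of 14651 genes: the log2 mean normalised count of the 7 folic acid libraries is on the horizontal axis and the log2 difference, G3 minus WT after folic acid, on the vertical axis. Black diamonds mark the 15 genes called in the fits without and with the Y share, 12 of them lower and 3 higher in G3, and red points the 322 called without it only.

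G3 folic acid 2, the library without Y-linked RNA, could be set against the WT folic acid libraries, which also lacked it. It lay below the WT folic acid range for 231 of the 232 lower genes and above it for 98 of the 105 higher genes, and outside that range for 56.3% of all genes tested. This library entered the fit that made the calls, so the count is a description. The number of calls moved strongly when 1 library was left out: to 27 without WT folic acid 2, 33 without G3 folic acid 1, 35 without WT folic acid 3, 95 without G3 folic acid 3, 520 without WT vehicle 2 and 615 (4.20%, of which 273 higher, 1.86% of the genes tested, and 342 lower, 2.33%) without WT folic acid 1. Of the 337 genes, 253 were also called without WT folic acid 1, a fit in which WT folic acid 2 and 3, the closest pair, alone stood for WT. Among the 58 called genes picked by the naming rule, to which the further Slc genes below do not belong, 11 kept their call whichever of the 15 libraries was left out: Slc10a2, Slc9a8, Myo5a, Slc6a18, Fam107a, Brip1os, Gm26225, Npnt, Aqp4, Zbtb16 and Pzp. The other 47 lost it without at least 1 library, 47 of them without WT folic acid 2, 45 without WT folic acid 3, 43 without G3 folic acid 1 and 31 without G3 folic acid 3. The 15 genes called in both fits were picked out after their values were seen.

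The smallest adjusted p belonged to Slc10a2, which encodes the sodium-dependent bile acid transporter of the apical membrane, found in ileum and in the proximal tubule of the kidney. Its normalised count was 252, 357, 234 and 277 in G3 folic acid 1 to 4, against 958, 796 and 898 in WT folic acid 1 to 3. Every G3 library was below every WT library by a wide gap. The means were 280.1 ± 54.3 (SD, n = 4) and 884 ± 81.8 (SD, n = 3), a 3.18-fold lower level in G3 (log2 -1.67, SE 0.15, limma adjusted p = 4.07e-05). Adding the Y share gave log2 -1.39 (limma adjusted p = 0.000244), and leaving out any 1 library gave an adjusted p of at most 0.000824. After vehicle the genotypes overlapped, at 590.0 ± 55.8 in G3 and 542 ± 75.7 in WT (SD, n = 4 each), so the WT folic acid mean was above and the G3 folic acid mean below both vehicle means. The interaction, the genotype difference after folic acid minus that after vehicle, was log2 -1.80 (limma adjusted p = 0.000322) in the fit without the Y share. With the Y share as a term 2 of all genes tested passed for the interaction. Slc51b, a subunit of the exporter that passes bile acids on to the blood side, had 264, 272, 283 and 296 in G3 folic acid, against 442, 579.7 and 635 in WT folic acid, with no overlap (log2 -0.97, limma adjusted p = 0.0112, but 0.134 with the Y share).

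Slc9a8 encodes a sodium-proton exchanger (NHE8) of the proximal tubule brush border. It measured 350.4, 529, 549 and 471 in G3 folic acid, against 1239, 1413 and 1289.7 in WT folic acid, again with no overlap. That is 2.8-fold lower in G3 (log2 -1.48, SE 0.14, limma adjusted p = 5.19e-05; Y share added, log2 -1.38, adjusted p = 0.00213). G3 was also below WT after vehicle in every library, at 740.4 ± 29.7 against 995 ± 107 (SD, n = 4 each), but that smaller difference did not pass (log2 -0.42, limma adjusted p = 0.0892). The interaction, without the Y share in the fit, was log2 -1.06 (limma adjusted p = 0.00608).

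Slc10a2 lies on chromosome 8 (start 5083219, end 5105351, minus strand) and Slc9a8 on chromosome 2 (start 167421712, end 167477000, plus strand) of GRCm38 in GENCODE M21. The bases just before the starts of these 2 genes, the ones with the smallest adjusted p, are shown because they differ in make-up. They come from RefSeq (GRCm38.p6), run 5′ to 3′ in the direction of the gene, and cover chr8:5105352-5105537 (186 bases) and chr2:167421460-167421709 (250 bases), ending before the first annotated transcript start. Capitals mark a match to GTTAATNAT, a core of the binding motif of HNF1, a transcription factor of the proximal tubule and liver, read on the reverse strand.
Slc10a2: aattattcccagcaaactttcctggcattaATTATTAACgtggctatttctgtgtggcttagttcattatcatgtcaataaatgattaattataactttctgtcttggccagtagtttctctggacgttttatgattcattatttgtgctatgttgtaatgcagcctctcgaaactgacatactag
Slc9a8: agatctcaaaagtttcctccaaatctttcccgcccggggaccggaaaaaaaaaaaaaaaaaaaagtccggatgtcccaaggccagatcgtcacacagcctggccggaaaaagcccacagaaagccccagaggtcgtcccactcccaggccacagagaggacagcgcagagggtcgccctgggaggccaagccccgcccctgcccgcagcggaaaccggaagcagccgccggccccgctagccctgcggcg
The Slc10a2 window had a GC content of 34.4% and 3 CpG pairs, and the Slc9a8 window 62.0% and 18, beside a median GC content of 60.3% over 13414 promoter windows. The motif search used 300-base windows from RefSeq and both strands. GTTAATNAT was found in 3 of 166 lower genes with a window (1.81%: Slc10a2, Mcf2l and Gm4450), in 3 of 82 higher genes (3.66%: Pzp, Arpc3 and Il18) and in 70 of 10456 genes tested (0.669%). These letters were chosen after a longer form had been searched. An E-box (CACGTG), which is its own reverse complement, was in 9.64% of the lower, 9.76% of the higher and 11.6% of all. CAAAGTCCA, a core of the HNF4 motif, was in 0 of 166 lower genes, 2 of 82 higher genes (2.44%) and 54 of 10456 (0.516%). A match is a description of letters and not a binding site.

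Slc6a18 encodes a transporter of neutral amino acids in the late proximal tubule. Its normalised count was 1337, 1721, 1567 and 1872 in G3 folic acid, against 3778, 3652 and 3588 in WT folic acid, without overlap (2.28-fold lower, log2 -1.19, SE 0.16, limma adjusted p = 0.00402; Y share added, adjusted p = 0.0324). The gene lies 11.9 kb from Tert on chromosome 13 (start 73661752, end 73678023). Of the 30 tested genes that overlap the 2 Mb on each side of Tert, including Tert, Slc6a18 was the 1 that passed. After vehicle it was not lower in G3, at 2468 ± 263 against 2037 ± 506 in WT (SD, n = 4 each, log2 0.30). The interaction, without the Y share in the fit, was log2 -1.49 (limma adjusted p = 0.00224). Slc22a7, an organic anion transporter (OAT2), had 268, 208, 452 and 309.5 in G3 folic acid, compared with 611, 599 and 605 in WT folic acid (2.03-fold lower, limma adjusted p = 0.0248, and 0.00898 when the Y share was added). It was lower in G3 after vehicle too (log2 -0.78, limma adjusted p = 0.0422). Its call was lost without G3 folic acid 1 or without WT folic acid 2 or 3, with an adjusted p of up to 0.0949.

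Solute carriers were looked at as a family after these values were seen. Of 280 tested Slc genes, 16 were lower, 1 was higher (Slc22a28, which did not pass without WT folic acid 1, limma adjusted p = 0.0905) and 6.07% passed in all, beside 2.30% of all genes, while the family's median difference was log2 0.08. Without WT folic acid 1, 16 were lower, of which 14 were among the first 16, and 4 were higher. That was 7.14% of the Slc genes, beside 4.20% of all genes in the same fit. With all libraries, 4 passed once the Y share was fitted. The lower ones included further organic anion transporters of the Slc22 family: Slc22a19 had 111, 290.3, 172 and 184 in G3 folic acid, against 859, 513 and 442 in WT folic acid, and Slc22a26 and Slc22a13 fell by 2.76-fold and 1.93-fold. Slc22a13 did not pass without WT folic acid 1 (limma adjusted p = 0.0682). Slc22a19, Slc22a26 and Slc22a28 have closely related copies, so reads could be split between them.

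**Figure D2:**
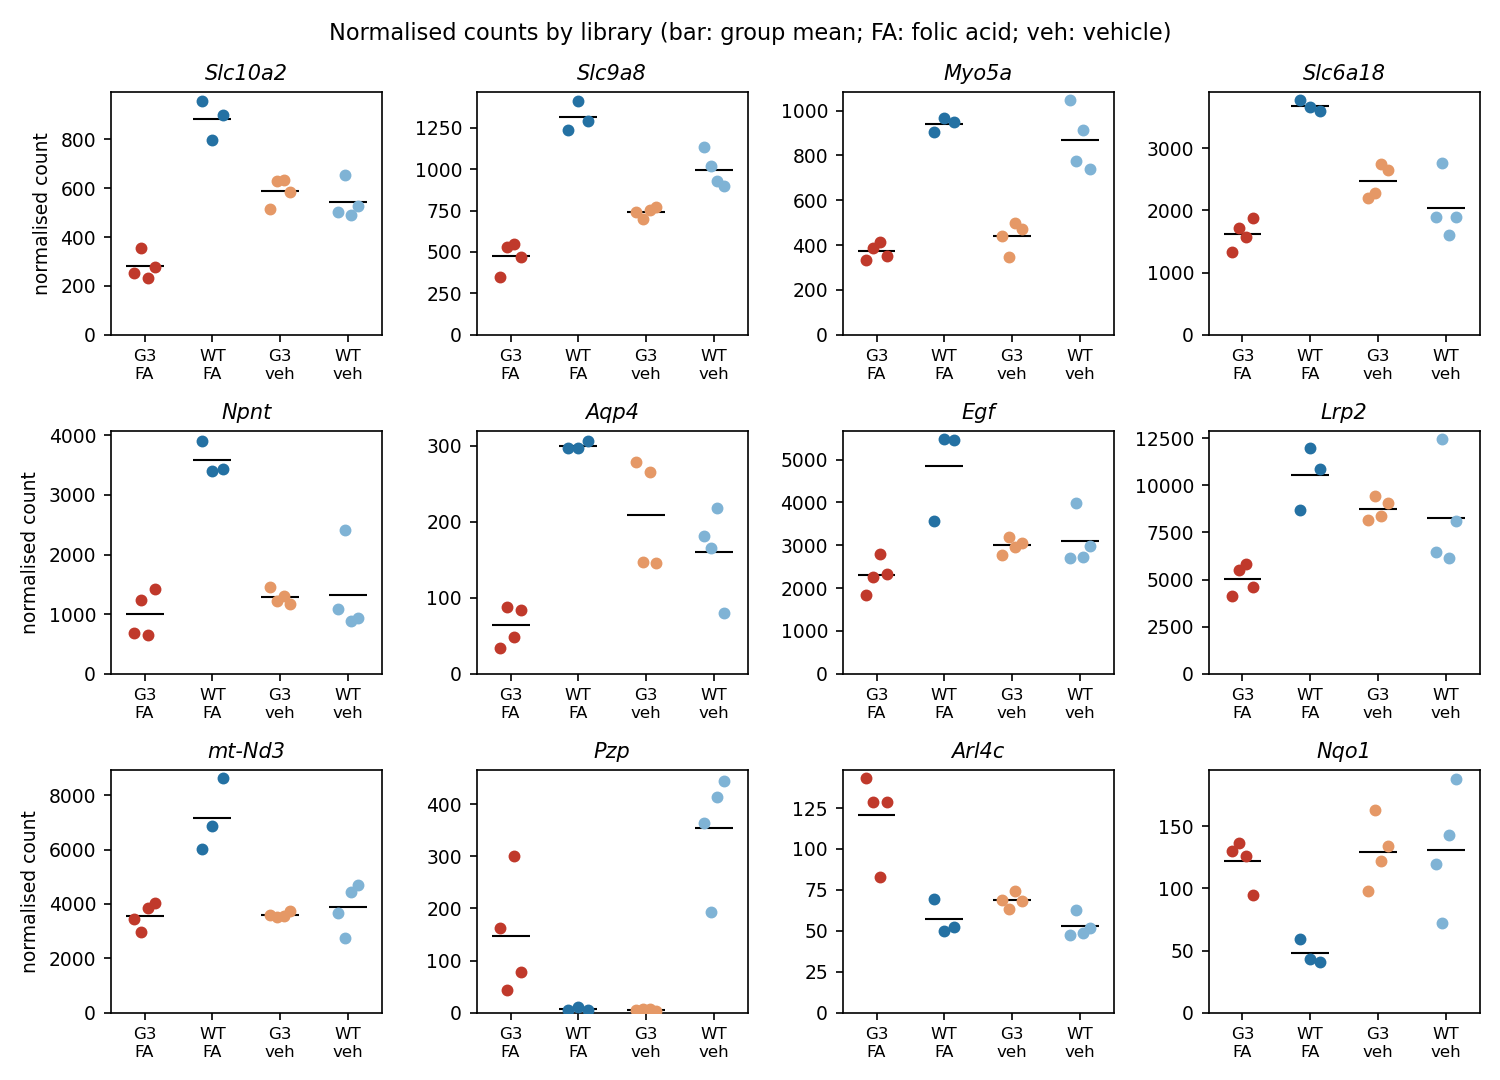
Normalised counts of 12 called genes in all 15 libraries, 1 point per library and a bar at each group mean, with G3 left of WT after folic acid (FA) and after vehicle (veh) and each axis starting at 0. For Slc10a2, Slc9a8, Slc6a18 and Npnt the G3 folic acid libraries lie below every WT folic acid library, while for Pzp they lie above them and the vehicle groups show the opposite order.

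Further genes passed in both fits and were lower in G3. Myo5a, a myosin motor that carries vesicles along actin, had 334, 389, 414 and 352 in G3 folic acid, against 905, 966 and 951 in WT folic acid (2.53-fold lower, log2 -1.34, SE 0.14, limma adjusted p = 0.000201). It was apart after vehicle as well, at 439 ± 65 in G3 against 869 ± 141 in WT (SD, n = 4 each; log2 -0.98, limma adjusted p = 0.00119), and the interaction did not pass (log2 -0.36, limma adjusted p = 0.374). Osbpl8, a lipid transfer protein of the endoplasmic reticulum, followed the same pattern, with 440.3, 371, 493 and 386 in G3 folic acid, against 634, 665 and 654 in WT folic acid. Its differences were log2 -0.63 after folic acid (limma adjusted p = 0.0155) and log2 -0.65 after vehicle (limma adjusted p = 0.00478), and the first did not pass without WT folic acid 2 or 3 (adjusted p up to 0.0808). In both genes the genotypes were thus apart with and without folic acid in the fit without the Y share. With the Y share as a term 1 gene of all tested passed after vehicle, so at least 1 of these 2 vehicle calls was lost.

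Npnt encodes nephronectin, a basement membrane ligand of integrin alpha 8 beta 1 that kidney development needs. It had 685, 1240.1, 654 and 1426 in G3 folic acid, against 3909, 3403 and 3428 in WT folic acid (3.78-fold lower, log2 -1.92, SE 0.30, limma adjusted p = 0.00865). G3 folic acid was near both vehicle groups, which averaged 1285 ± 122 in G3 and 1326 ± 725 in WT (SD, n = 4 each), and WT folic acid was the group that stood high. Fam107a, an actin-associated protein, had 168, 359.8, 216 and 301 in G3 folic acid, compared with 911, 704 and 827 in WT folic acid (3.22-fold lower, limma adjusted p = 0.00522). Its interaction, without the Y share in the fit, was log2 -2.35 (limma adjusted p = 0.0014). Fgf1, an acidic fibroblast growth factor, had 651, 574, 993 and 699 in G3 folic acid, against 1239, 1327 and 1212 in WT folic acid (1.76-fold lower, limma adjusted p = 0.0303, and up to 0.114 without G3 folic acid 1 or WT folic acid 2 or 3). The libraries did not overlap for any of these 3 genes.

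Brip1os, an RNA annotated as antisense, had 305, 265, 356 and 375 in G3 folic acid, compared with 593, 531 and 589 in WT folic acid (1.77-fold lower, limma adjusted p = 0.00865). The kit keeps the strand, and the labels name a strand-aware counting setting for it. mt-Nd3, a complex I subunit encoded in the mitochondrial genome, had 3432, 2983, 3864 and 4021 in G3 folic acid, against 6028, 6881 and 8633 in WT folic acid (2.0-fold lower, limma adjusted p = 0.0138, and 0.00898 when the Y share was added). It was the 1 of 13 mitochondrial protein genes that passed, and the list's median was log2 0.05. For mt-Nd3 G3 folic acid was near both vehicle means, 3609 in G3 and 3885 in WT, and WT folic acid was the group that stood high. Without G3 folic acid 1 or WT folic acid 2 or 3 the adjusted p of mt-Nd3 reached 0.0787. The snoRNA gene Gm26225 completed the lower genes called in both fits, with 25.4, 30.1, 29 and 42 in G3 folic acid, compared with 278, 131 and 86.7 in WT folic acid (log2 -2.21, limma adjusted p = 0.00533).

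Of the 3 higher genes called in both fits, Arl4c, a small GTPase of the ARF family, had 143, 129, 82.9 and 129 in G3 folic acid, against 69.2, 49.9 and 52.4 in WT folic acid. The groups did not overlap, and the level was 2.08-fold higher in G3 (log2 1.05, SE 0.19, limma adjusted p = 0.0155; Y share added, log2 1.23, adjusted p = 0.0499). Without G3 folic acid 1 or WT folic acid 2 or 3 its adjusted p reached 0.0834. Pzp, a broad protease inhibitor related to alpha-2-macroglobulin, had 163, 43.2, 301 and 77.8 in G3 folic acid, against 4.54, 10.6 and 5.72 in WT folic acid (15.2-fold higher, log2 3.93, SE 0.50, limma adjusted p = 0.00178). After vehicle the order was the reverse, with 5.08, 7.82, 6.49 and 3.01 in G3 and 364, 193, 414 and 444 in WT (log2 -5.74, limma adjusted p = 9.28e-06), and the Y share was high in the same 2 groups as Pzp. Once the Y share was added, Pzp still passed after folic acid (log2 2.82, limma adjusted p = 0.00682). In G3 folic acid 2, which lacked Y-linked RNA, Pzp was above the WT folic acid range.

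Among the other large decreases, Aqp4 encodes the water channel of the basolateral membrane of collecting duct principal cells. Its normalised count was 34.5, 88.3, 49 and 84.1 in G3 folic acid, against 297, 298 and 306 in WT folic acid, a 4.97-fold lower level without overlap (log2 -2.31, SE 0.35, limma adjusted p = 0.00684; Y share added, adjusted p = 0.0927). The other 8 collecting duct markers did not pass, among them the vasopressin-regulated water channel gene Aqp2 (log2 -0.12). Zbtb16, a zinc finger transcription factor that glucocorticoids induce, had 18.2, 9.39, 38 and 25 in G3 folic acid, compared with 317, 112 and 107 in WT folic acid (7.41-fold lower, log2 -2.89, limma adjusted p = 0.00967; Y share added, adjusted p = 0.0927). Hdc, the enzyme that makes histamine, showed the largest fall of the genes named here, 2.72, 62, 3.0 and 34.9 in G3 folic acid against 177, 483 and 500.4 in WT folic acid (log2 -4.69, SE 1.19, limma adjusted p = 0.048). Its values scattered widely after vehicle, 30.5, 43, 163 and 117 in G3 and 7.92, 351, 4.8 and 13 in WT, with the lowest values in the 3 WT vehicle libraries richest in Y-linked RNA, and with the Y share its difference was log2 -1.69 (adjusted p = 0.405).

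The remaining genes with the largest falls covered secreted, surface and enzyme genes and short RNAs. Scgb1c1, a secretoglobin, had 2.72, 20.7, 4.0 and 13.4 in G3 folic acid, against 65.8, 41.3 and 75.3 in WT folic acid (6.87-fold lower). The serine protease genes Tmprss11a and Prss53 fell by 4.72-fold and 3.84-fold, the adhesion molecule gene Ceacam2 by 4.65-fold, the steroid dehydrogenase gene Hsd17b14 by 4.92-fold and the lipid-binding protein gene Sec14l3 by 3.83-fold. Rnu11, the U11 RNA of the minor spliceosome, and mt-Tp, a mitochondrial transfer RNA, were 3.79-fold and 3.73-fold lower in G3 than in WT. Their limma adjusted p ran from 0.0155 to 0.0481, G3 folic acid lay below WT folic acid in every library, and none passed with the Y share. Hsd17b14 and Ceacam2 were higher in G3 than in WT after vehicle (log2 2.39 and 2.15, limma adjusted p = 0.0196 and 0.0189). Ceacam2, Sec14l3 and Rnu11 did not pass without WT folic acid 1 (limma adjusted p = 0.056, 0.0934 and 0.0615), and each of the 8 lost its call without G3 folic acid 1 and without WT folic acid 2 (adjusted p up to 0.169).

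All nephron segment markers that passed were lower in G3. In the proximal tubule 1 of 16 markers fell, Lrp2, which encodes megalin, the receptor that takes up filtered proteins. It had 4109, 5498, 5815 and 4626 in G3 folic acid, compared with 8702, 12006 and 10872 in WT folic acid (2.1-fold lower, log2 -1.07, SE 0.21, limma adjusted p = 0.0205), while the list's median was log2 0.08 beside 0.01 for all genes. Without WT folic acid 1, Miox and Slc5a12 were lower as well, 3 of 16, beside 2.33% of all genes tested. In the thick ascending limb 2 of 8 fell, and the median was log2 -0.45. Egf, the growth factor precursor made there, had 1830.1, 2258, 2789 and 2339 in G3 folic acid, against 3573, 5485 and 5461 in WT folic acid (2.08-fold lower, limma adjusted p = 0.0105). Slc12a1, the sodium-potassium-chloride cotransporter that furosemide blocks, had 5163, 8823, 6247 and 9203 in G3 folic acid, compared with 14113, 13771 and 13259 in WT folic acid (1.92-fold lower, limma adjusted p = 0.0273).

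Slc4a1, the chloride-bicarbonate exchanger of intercalated cells and of red cells, had 98, 149, 107 and 171 in G3 folic acid, against 186, 323 and 287 in WT folic acid (2.01-fold lower, limma adjusted p = 0.0332). The other 7 intercalated cell markers did not pass. All 6 tested erythroid genes had a negative difference (median log2 -0.84, and -1.30 with the Y share), and of the other 5 none passed in the fit without the Y share. When the Y share was added, Hba-a2, a globin gene with a near-identical copy (log2 -1.71, limma adjusted p = 0.00898), and Alas2, the heme synthesis enzyme of red cells (log2 -1.68, limma adjusted p = 0.00898), passed as lower in G3. The erythroid genes summed to 6348 to 22186 in G3 folic acid, against 17649 to 23328 in WT folic acid. The part of red cell RNA in this result was not tested. Of 13 endothelial markers 3 fell, with a list median of log2 -0.33: the VEGF receptor gene Flt1 (505, 532, 498 and 547 in G3 folic acid, against 782, 771 and 774 in WT folic acid, limma adjusted p = 0.0198), the phosphatase gene Ptprb (1.49-fold lower, adjusted p = 0.0303) and the TGF-beta coreceptor gene Eng (1.56-fold lower, adjusted p = 0.0493, but 0.0789 without WT folic acid 1). Eng averaged 243 in WT folic acid, 156 in G3 folic acid and 139 (G3) and 134 (WT) after vehicle. For Flt1 and Ptprb the G3 folic acid mean was below both vehicle means. Col4a3, a collagen chain of the glomerular basement membrane, had 516, 517, 597 and 639 in G3 folic acid, compared with 998, 1138 and 966 in WT folic acid (1.83-fold lower, limma adjusted p = 0.0105), the 1 of 17 basement membrane genes that passed. None of these segment, vessel and basement membrane genes passed once the Y share was fitted, where all remained lower by point estimate. Each lost its call without WT folic acid 2, with an adjusted p of up to 0.154 over all single libraries.

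Among genes of energy and nutrient handling, single members passed, all of them lower in G3. Uqcrc1, a core subunit of respiratory complex III, had 1569, 1475, 1791 and 1670.3 in G3 folic acid, against 2347, 2623 and 2686 in WT folic acid (1.57-fold lower, limma adjusted p = 0.0155). It was the 1 of 26 nuclear oxidative phosphorylation genes that passed, and the list's median was log2 0.08. In fatty acid oxidation 2 of 23 fell (median log2 -0.10): Etfdh, which passes electrons from fatty acid oxidation to ubiquinone (1.66-fold lower, limma adjusted p = 0.0198), and Ppargc1a, the coactivator of mitochondrial genes (1.38-fold lower, limma adjusted p = 0.0407). Hpd, an enzyme of tyrosine breakdown, had 67.2, 131, 66.9 and 85.9 in G3 folic acid, compared with 167, 364 and 357 in WT folic acid (3.28-fold lower, limma adjusted p = 0.0332), the 1 of 21 amino acid breakdown genes that passed. After vehicle Hpd was higher in G3 (log2 1.64, limma adjusted p = 0.0246).

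Of 12 genes of gluconeogenesis and insulin action, 3 fell and the median was 0.00: the insulin receptor gene Insr (181, 178, 209.8 and 213 in G3 folic acid, against 290.4, 275 and 269.8 in WT folic acid), its adaptor gene Irs2 (1.77-fold lower) and the transcription factor gene Foxo3 (1.67-fold lower), each at a limma adjusted p of 0.0303 to 0.0332. Irs2 overlapped between the groups. Single members also fell in glycolysis (Pfkp, 1.73-fold, 1 of 17) and the unfolded protein response (Hsp90b1, a chaperone of the endoplasmic reticulum, 1.57-fold, 1 of 16). The medians of these 2 lists were log2 -0.28 and -0.35. Insr, Foxo3 and Pfkp did not pass without WT folic acid 1 (limma adjusted p = 0.0523, 0.0701 and 0.0836). None of these genes, nor of Uqcrc1, Etfdh, Ppargc1a and Hpd, passed with the Y share, and each lost its call without WT folic acid 2 or 3 (adjusted p up to 0.157).

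A few stress, immune and cell division genes were higher in G3 folic acid kidneys. Nqo1, a quinone reductase that NRF2 induces, had 129.8, 136, 126 and 94.8 in G3 folic acid, against 59, 43.2 and 41 in WT folic acid, without overlap (2.53-fold higher, log2 1.34, limma adjusted p = 0.0198). It was the 1 of 15 NRF2 and glutathione genes that passed. The vehicle groups averaged 129 ± 27.2 in G3 and 131 ± 48.2 in WT (SD, n = 4 each), so WT folic acid was the group that stood low. C4b, a complement component, had 74.4, 17.9, 31 and 33.1 in G3 folic acid, compared with 7.94, 8.64 and 2.86 in WT folic acid (5.09-fold higher, limma adjusted p = 0.0248), the 1 of 15 complement genes that passed, in a list with a median of log2 0.87.

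Il18, an epithelial and macrophage cytokine, had 21.8, 14.1, 15 and 14.3 in G3 folic acid, against 6.81, 6.72 and 3.81 in WT folic acid (2.57-fold higher, limma adjusted p = 0.0384), the 1 of 15 chemokine, cytokine and NF-kB genes that passed (median log2 0.64). Nusap1, a protein of the mitotic spindle, had 76.3, 26.3, 46 and 31.3 in G3 folic acid, compared with 18.2, 14.4 and 16.2 in WT folic acid (2.46-fold higher, limma adjusted p = 0.0392). It was the 1 of 17 cell cycle genes that passed, 16 of which had a positive difference (median log2 0.50), and the proliferation marker Mki67 did not (log2 0.57, limma adjusted p = 0.489). Ciart, a repressor of the circadian clock, had 13.6, 18.8, 21 and 25 in G3 folic acid, against 5.67, 0 and 2.86 in WT folic acid (limma adjusted p = 0.0249), the 1 of 15 clock genes that passed (median log2 0.30), and was higher in G3 after vehicle as well (log2 2.27, limma adjusted p = 0.0315). No source used here gives the time of day at collection. S100a9, a calcium-binding protein of neutrophils, was lower, with 31.8, 15, 16 and 14.3 in G3 folic acid, compared with 23.8, 70.1 and 67.7 in WT folic acid (limma adjusted p = 0.0391), the 1 of 5 neutrophil genes that passed, and its groups overlapped. None of these 6 genes passed with the Y share, and all lost their call without WT folic acid 2 or 3 (adjusted p up to 0.165).

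Of the 12 largest increases, 9 were in genes that were lower in G3 than in WT after vehicle (limma adjusted p under 0.05), all but C4b, Rundc3a and Nat8f6. In a list of 16 genes known to be higher in male mouse kidney, 3 passed (Cyp2d9, Cyp2e1 and Cyp4b1) and the median difference was log2 2.40 after folic acid and log2 -3.19 after vehicle, with the Y share high in libraries 1, 3 and 4 of G3 folic acid and in all of WT vehicle. In a list of 8 genes known to be higher in female mouse kidney none passed, and the medians were log2 -1.80 after folic acid and log2 2.95 after vehicle. In the fit that holds the Y share these medians were 0.86 and 0.30 after folic acid. Cyp4b1, a cytochrome P450, had 2614, 104, 3349.7 and 1435 in G3 folic acid, against 130.5, 111 and 93.4 in WT folic acid: G3 folic acid 2, without Y-linked RNA, lay within the WT range. Cyp2d9 passed in both fits, with 677, 145, 846 and 357 in G3 folic acid, against 80.5, 68.1 and 63.9 in WT folic acid (log2 2.54, limma adjusted p = 0.0155; Y share added, log2 1.30, adjusted p = 0.00776).

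Among these increases, 3 (Ugt2b37, Cyp4b1 and Timd2) overlapped between the groups through G3 folic acid 2. Ugt2b37, a glucuronosyltransferase, had 1594, 51.7, 2338 and 1208 in G3 folic acid, compared with 111, 35.5 and 32.4 in WT folic acid, and Timd2, a receptor for ferritin in mice, had 233, 22.5, 211 and 93.9 in G3 folic acid, against 31.8, 10.6 and 10.5 in WT folic acid. The others were Pzp, Cyp2d9 and C4b, given above, Cyp2e1 (8.22-fold), the acetyltransferase family genes Nat8f5 (8.38-fold) and Nat8f6 (4.74-fold), the zinc-alpha-2-glycoprotein gene Azgp1 (5.4-fold), Rundc3a (4.87-fold) and the chondroitin sulfotransferase gene Chst11 (4.6-fold), with limma adjusted p of 0.0167 to 0.0291. In the other 9 the groups did not overlap. Apart from Pzp and Cyp2d9 none passed with the Y share, and all but Pzp lost their call without WT folic acid 2 (adjusted p up to 0.139 over all single libraries). Ugt2b37, the Nat8f genes and the Cyp genes have near-identical copies, so their single values are uncertain.

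**Figure D3:**
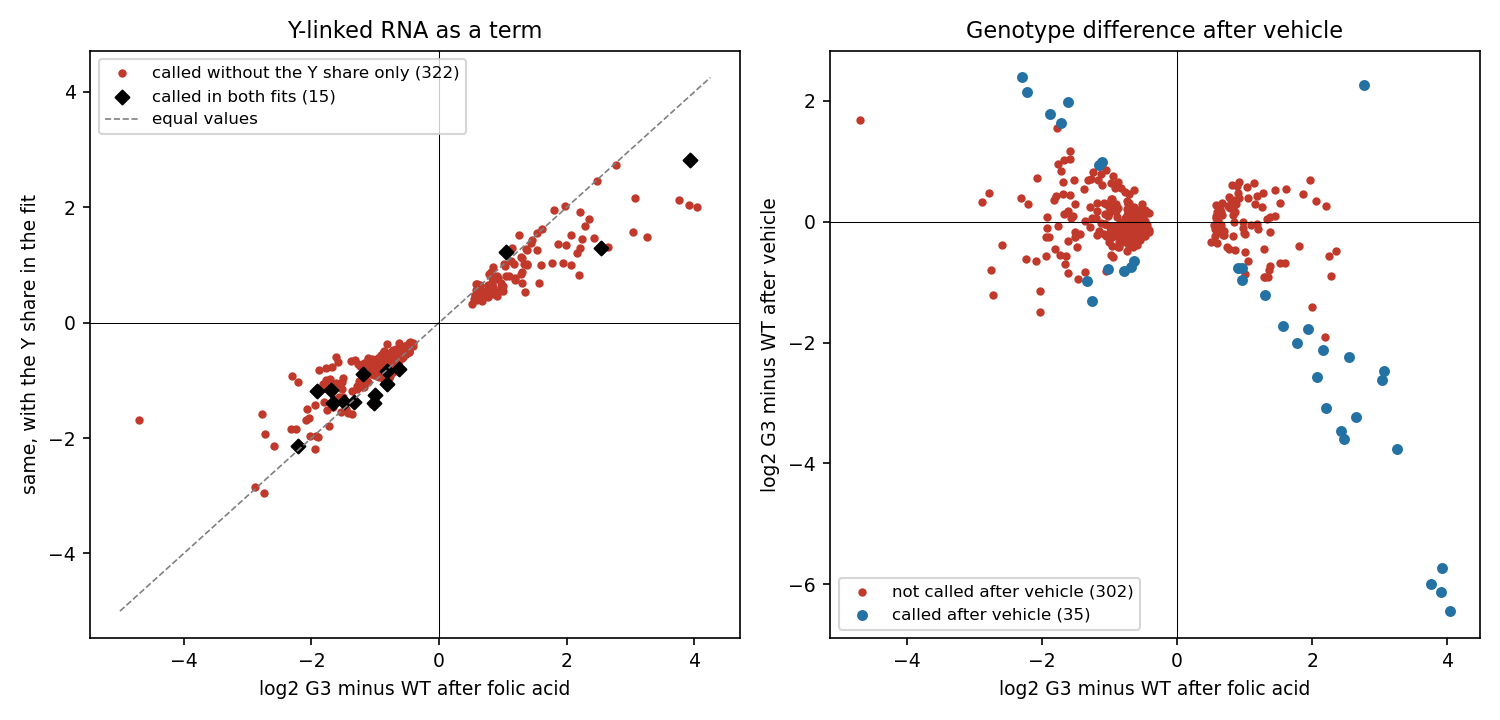
Each point is 1 of the 337 called genes, with its log2 difference, G3 minus WT after folic acid, on the horizontal axis. The vertical axis gives the same difference once the Y share was fitted (left, where all 337 keep their sign) and the log2 difference after vehicle (right, where blue points are the 35 genes also called after vehicle, 28 of them with the opposite sign). The genes were chosen by the horizontal value, and the left panel uses the same libraries, so the kept signs are in part set by that choice.

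The vehicle groups show where the called genes lay among all 4 group means. Since the genes were chosen for a difference between G3 and WT after folic acid, these counts are a description and are in part set by that choice. Among the 232 lower genes the WT folic acid mean was the highest of the 4 groups in 212 and the G3 folic acid mean the lowest in 190, and both held for 170. Among the 105 higher genes WT folic acid was the lowest in 96 and G3 folic acid the highest in 62. After vehicle 425 genes passed (2.90%) and for the interaction 560 (3.82%). Leaving out single libraries gave 83 (without WT vehicle 4) to 686 (without WT vehicle 2) after vehicle, and 260 (without WT folic acid 3) to 928 (without WT vehicle 2) for the interaction. Of the 337 genes, 35 were also called after vehicle, 7 with the same sign, and 149 were called for the interaction. Adding the Y share left 1 gene after vehicle and 2 for the interaction. The folic acid and vehicle comparisons used different libraries.

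Title numbers offered 1 further view. WT vehicle 4 belonged to the same title series as all G3 folic acid libraries, and WT vehicle 1 to 3 to that of WT folic acid. WT vehicle 4 was above the other WT vehicle libraries in 61 of the 105 higher genes (58.1%, beside 24.1% of all genes tested). It was below them in 70 of the 232 lower genes (30.2%, beside 21.5% of all). WT vehicle 4 also had the highest Y share of all libraries, 1 against 0.986, 0.327 and 0.942 in WT vehicle 1 to 3. Its summed male kidney genes were the highest as well, 210918 against 203874, 114233 and 188688. Title series and Y share cannot be told apart in this library. With the title series as a term 0 genes passed in limma after folic acid, and 623 had an unadjusted p under 0.05. In that fit only WT vehicle 4 against WT vehicle 1 to 3 told the series from genotype after folic acid, so its 0 cannot decide between them. The vehicle comparison was split as well, since G3 vehicle 1 to 3 came from another run of title numbers than WT vehicle 1 to 3. Without the title series as a term, edgeR's quasi-likelihood test called 369 genes and DESeq2 778.

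Fibrosis is the outcome in the study's title, and genes of scar matrix, tubular injury and macrophages did not pass with all 3 WT folic acid libraries. WT folic acid 1 lay among or above the G3 libraries for most of them, while WT folic acid 2 and 3 lay lower. Col1a1, the main collagen of scars, had 1075, 968, 556 and 1175 in G3 folic acid, against 1769, 178 and 214 in WT folic acid (log2 1.16, SE 0.59, limma adjusted p = 0.278). Without WT folic acid 1 the difference was log2 2.22 (limma adjusted p = 0.0103). That fit left WT folic acid 2 and 3, the closest pair within either group (mean chi-square per gene 2.81), and whether they came from 1 animal was not tested. The library left out was the one with the most Col1a1. These limits hold for every result given here without WT folic acid 1. Of 32 interstitial matrix genes 0 passed (median log2 0.34), and without WT folic acid 1 10 were higher (median log2 0.96): Col1a1, Col1a2, Col3a1, Lox, Mmp2, Mmp7, Mmp14, Thbs2, Timp1 and Tgfbi. In that fit 1.86% of all genes tested were called higher. Mmp7, a matrix protease of injured tubules, had 75.3, 47, 12 and 81.4 in G3 folic acid, against 120.3, 0 and 0 in WT folic acid. When the Y share was added and WT folic acid 1 left out, 4 of the 32 passed, beside 54 of all 14651 genes tested.

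Havcr1 (KIM-1) and Lcn2 (NGAL), which injured tubules make, followed the same pattern. Havcr1 had 80.8, 58.2, 22 and 53.7 in G3 folic acid, compared with 44.2, 4.8 and 0.953 in WT folic acid (log2 2.63, limma adjusted p = 0.142, and 0.0297 without WT folic acid 1). Lcn2 had 185, 147, 34 and 226 in G3 folic acid, against 358, 11.5 and 12.4 in WT folic acid (limma adjusted p = 0.382, and 0.0382 without WT folic acid 1). Of 18 genes of tubular injury and failed repair, 0 passed with all libraries and 5 without WT folic acid 1: Havcr1, Lcn2, Vcam1, Cd44 and Timp1. All 5 were higher in G3, beside 1.86% of all genes tested called higher in that fit. G3 folic acid 3 was the lowest of the G3 libraries for all 18 of them.

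Macrophage genes also differed between these 2 fits. Of 18 genes 17 had a positive difference and 0 passed (median log2 1.15). In the fit without WT folic acid 1, 11 passed, all higher in G3 (median log2 1.97), beside 1.86% of all genes tested called higher. With the Y share added to that fit 5 passed, all higher in G3, beside 54 of all 14651 genes tested that passed. Fcgr1, the high-affinity receptor for IgG, had 22.7, 36.6, 19 and 34 in G3 folic acid, compared with 21.6, 4.8 and 3.81 in WT folic acid (limma adjusted p = 0.116, and 0.0315 without WT folic acid 1). Il34, a cytokine of the tubule that supports macrophages, had 389, 195, 303 and 321 in G3 folic acid, against 296, 98.9 and 77.2 in WT folic acid (limma adjusted p = 0.0897, and 0.00789 without WT folic acid 1). The summed macrophage genes ran from 2507 to 6862 in G3 folic acid and from 2280.1 to 7826 in WT folic acid, where 7826 was WT folic acid 1. That library also held the most B and plasma cell RNA, 12528 against 81.9 to 2687 in the other 6, most of it from Igkc. Of 15 complement genes 7 were higher without WT folic acid 1, C4b among them, beside the same 1.86% of all genes tested. The part of cell composition in these results was not tested.

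**Figure D4:**
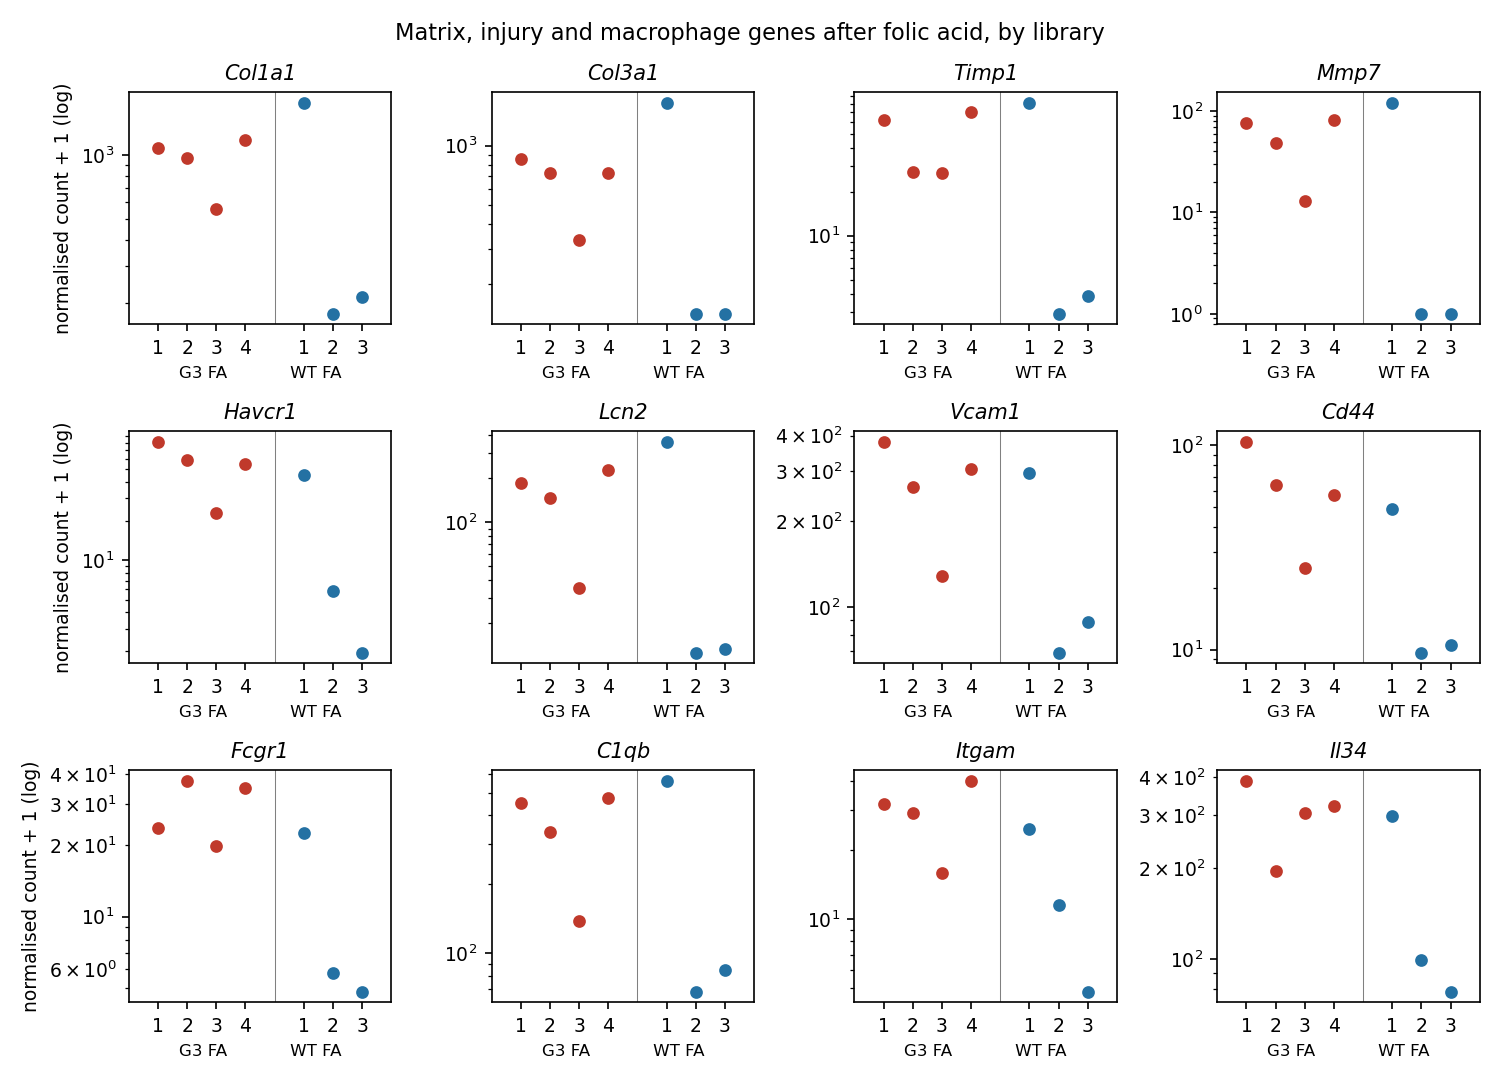
Normalised count + 1 on a log axis for 12 genes of matrix, tubular injury and macrophages in each folic acid library, G3 left of WT. In each panel WT folic acid 1 lies among or above the G3 libraries, and WT folic acid 2 and 3 lie below all of them, as for Col1a1 at 178 and 214. All 12 genes were among those called higher in G3 without WT folic acid 1, so this pattern is in part set by their choice. In that fit 10 of 32 matrix, 5 of 18 tubular injury and 11 of 18 macrophage genes were called higher.

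Epithelial to mesenchymal transition is the other process in the title. Of 18 tested genes, 0 passed in either direction (median log2 -0.28). Vim, an intermediate filament of mesenchymal cells, had 421, 366, 221 and 387 in G3 folic acid, against 621, 271 and 267 in WT folic acid (log2 -0.07, limma adjusted p = 0.916), and its sign was positive with the Y share or without WT folic acid 1. Without WT folic acid 1, 1 member passed, S100a4, higher in G3. The 17 TGF-beta pathway genes also had 0 calls (median log2 0.17), and 1 (Tgfbr2, higher) without WT folic acid 1.

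Genes tied to telomere loss did not pass either. Of 23 telomere and DNA damage genes, 17 p53 targets and 10 senescence genes 0 passed in any of the fits with all libraries, with the Y share or without WT folic acid 1. Their medians were log2 0.11, 0.24 and 0.42, beside 0.01 for all genes, and -0.0712, -0.00427 and 0.0893 with the Y share. The summed senescence genes went the other way than their median, from 4641 to 6208 in G3 folic acid against 6508 to 7243 in WT folic acid. The sums of the telomere and p53 lists overlapped between the groups. Cdkn1a, which encodes the cell cycle inhibitor p21, had 195, 209, 204 and 249 in G3 folic acid, compared with 251, 275 and 325 in WT folic acid. Every G3 library was below every WT library, yet the difference did not pass (log2 -0.40, SE 0.31, limma adjusted p = 0.499). Tert itself had 6.35, 4.7, 3.0 and 10.7 in G3 folic acid, against 13.6, 6.72 and 6.67 in WT folic acid (log2 -0.52, SE 0.60, limma adjusted p = 0.667). At so few reads a partial loss of Tert RNA was not detectable, and a 3' tag outside the deleted part would not show it.

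**Figure D5:**
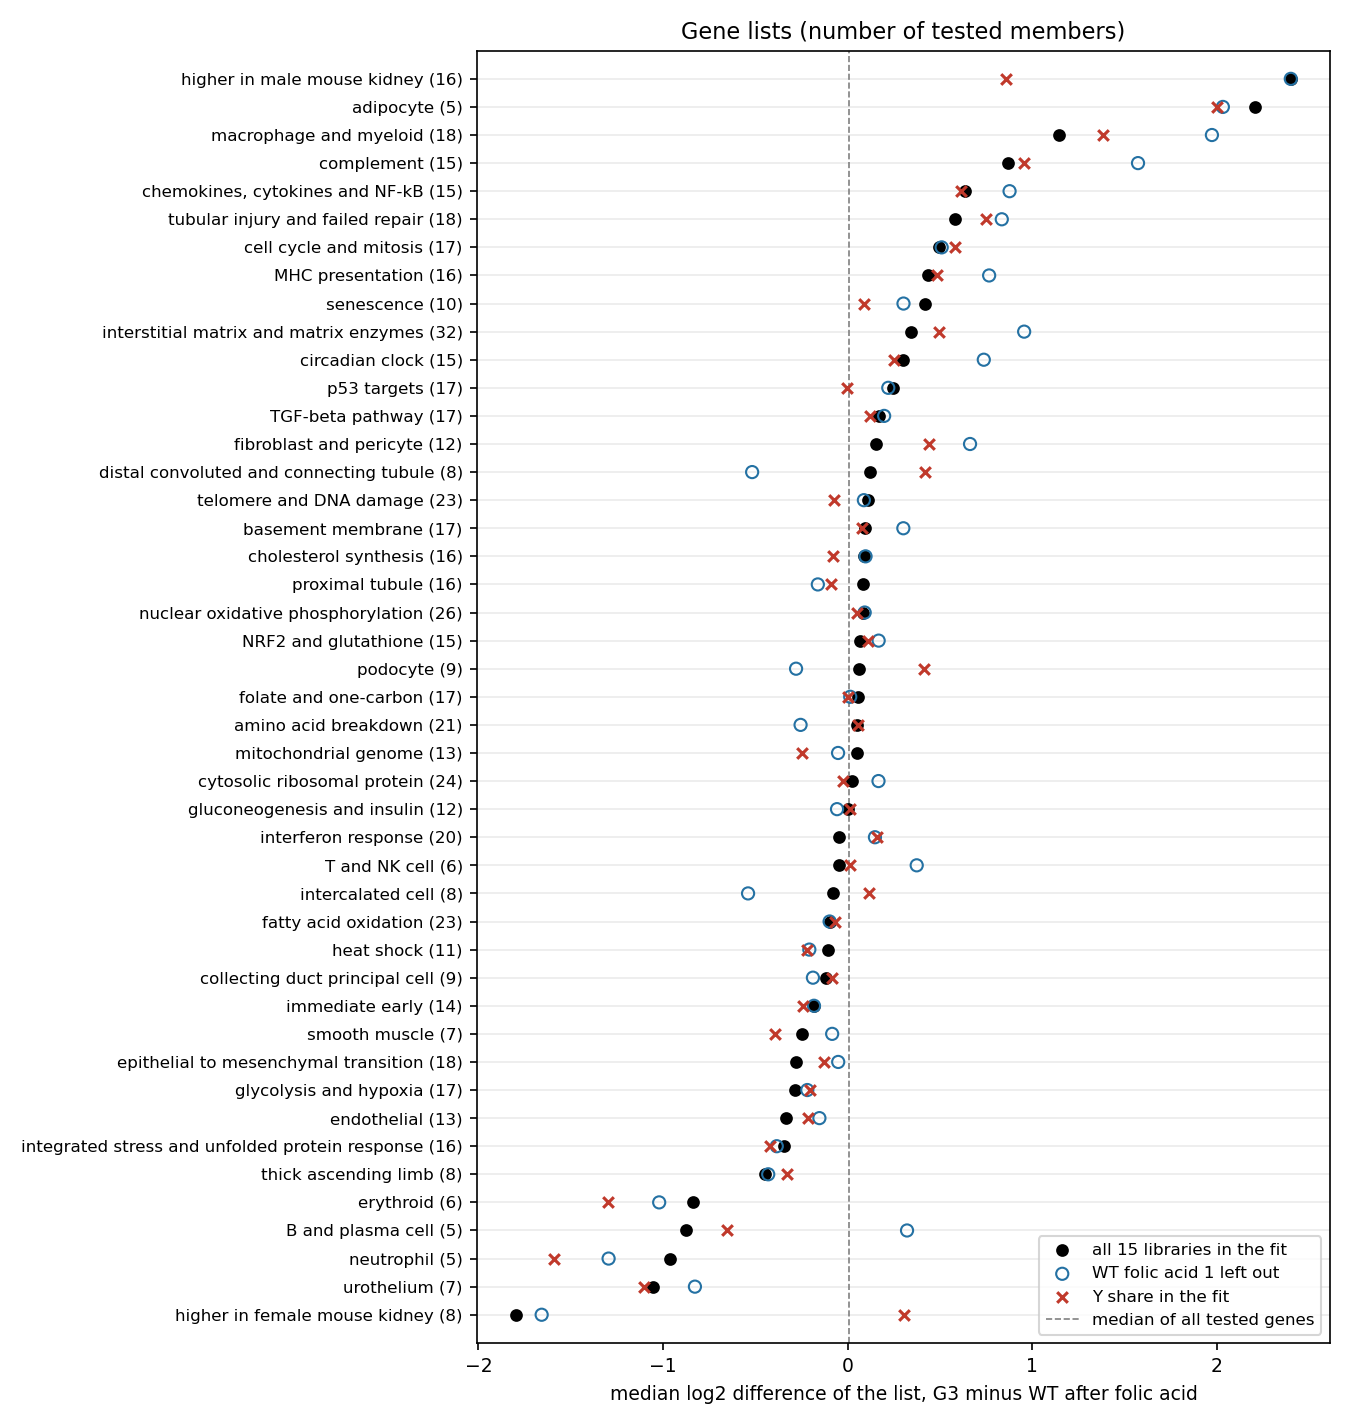
Median log2 difference, G3 minus WT after folic acid, of each gene list, with the number of tested members in brackets. Filled points use all 15 libraries, open circles leave out WT folic acid 1 and crosses add the Y share; the macrophage list lies at 1.15 and at 1.97 without WT folic acid 1, and the male kidney list stands at 2.40 and at 0.86 with the Y share.

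Other lists had no member that passed: distal convoluted and connecting tubule (median log2 0.12), podocytes (0.06), B and plasma cells (-0.88), adrenal cortex (0.24, 2 genes), fibroblasts and pericytes (0.15), smooth muscle (-0.25), T and NK cells (-0.05), urothelium (-1.05), adipocytes (2.21), MHC presentation (0.43), interferon response (-0.05), folate and one-carbon metabolism (0.06), heat shock (-0.10) and immediate early genes (-0.18). The high adipocyte median came with summed levels of 66.3 to 486 in G3 folic acid, against 21.6 to 28.8 in WT folic acid, all low beside the tubule markers. MHC presentation had 4 higher members of 16 without WT folic acid 1, beside 1.86% of all genes tested.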

How the data were processed

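The sources were 15 single-end 3' end libraries (QuantSeq 3' FWD kit, 300 ng of total RNA, mean RNA quality number 6.3, range 4.7 to 8.0, per the labels' protocols) from perfused whole kidneys. Per the submitters' processing notes, FastQC 0.11.7, TopHat2 2.0.10 with Bowtie 1.0.0 and SAMtools 0.1.19, HTSeq 0.6.1 and DESeq2 were used with GRCm38. For the annotation release and the rule by which genes were kept, both not given in the sources used here, nothing is assumed. Values as deposited are gene counts divided by size factors by the authors, a signal scale on which 1 read is worth a fixed step in each library, and 100% of values were whole reads within 0.001. Counts carry no molecular identifiers.

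Differences were tested with limma 3.58.1 (R 4.3.3) on log2(normalised count + 1), which understates the fold change of low genes, with group terms, a mean-variance trend and Benjamini-Hochberg adjustment over the 14651 genes that reached 10 in 3 libraries. All 15 libraries entered the fit, so that the spread is shared, and folds are from the log2 differences. The limma fits without and with the Y share were tested on simulated data. They recovered 10% and 6% of 1.5-fold changes and 60% and 40% of 2-fold changes, in that order. A gene or list without a call is therefore not shown to be equal between the groups. The edgeR and DESeq2 fits and the fits with other terms or weights were not simulated. The labels give the libraries as separate samples without naming animals, so the p-values measure spread among libraries, which may be technical. edgeR 4.0.16 and DESeq2 1.42.0 were run on the whole reads as alternatives, together with other pseudocounts, filters and scalings, labelled sex, Y share (the 4 Y-linked genes summed, over the highest library) and title series as terms, and each library left out. Named genes are the 12 largest called changes each way with a mean of at least 20 (no predicted models, Xist or Y-linked genes), up to 3 called members per list by p, a fixed panel, and the genes called with and without the Y share. The members and lists were chosen with earlier results of these data known. Some genes that this rule picks are not reported here. Gene positions are from GENCODE M21 (19509 of 19602 symbols matched), and promoter windows from RefSeq. Replicate numbers follow the order of the samples and pair nothing.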

Additional observations from a re-analysis of the deposited data

Results flagged for a closer look

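In 4 cases 1 of the 4 G3 folic acid libraries lay far from the other 3 by Dixon's test, which chance does in about 1 of 20 groups of values. These were Tmprss11a at 24.2 in G3 folic acid 4, S100a9 at 31.8 and Il18 at 21.8 in G3 folic acid 1, and the summed adipocyte genes at 486 in G3 folic acid 3.

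For 36 of the 67 named genes the genotype difference after folic acid differed from that after vehicle (limma interaction, Benjamini-Hochberg adjusted p under 0.05, beside 3.82% of all genes tested). Of the 67 genes, 58 were called for their difference after folic acid, which is part of the interaction. The count of 36 is therefore in part set by that choice and is a description. The interaction is the log2 difference G3 minus WT after folic acid minus the same after vehicle. It was positive for genes that follow Y-linked RNA and others: Ugt2b37 (9.76), Pzp (9.66), Cyp4b1 (7.03), Azgp1 (5.90), Timd2 (5.88), Cyp2e1 (5.65), Nat8f5 (5.54), Chst11 (5.28), Cyp2d9 (4.78), Fcgr1 (3.89), Rundc3a (3.18), C4b (2.83), Nat8f6 (2.81), Il34 (2.77), Nusap1 (2.51) and Il18 (2.17). It was negative for Hdc (-6.38), Hsd17b14 (-4.69), Ceacam2 (-4.36), Hpd (-3.35), Scgb1c1 (-3.25), Zbtb16 (-3.22), Aqp4 (-2.71), Gm26225 (-2.50), Fam107a (-2.35), Npnt (-2.00), Slc10a2 (-1.80), Slc6a18 (-1.49), Lrp2 (-1.21), Foxo3 (-1.08), Slc9a8 (-1.06), Egf (-1.03), mt-Nd3 (-0.92), Insr (-0.80), Uqcrc1 (-0.68) and Ppargc1a (-0.63). The Y share was high in 3 of the 4 G3 folic acid libraries and in WT vehicle, and low in the other 2 groups, and with it in the fit 2 genes passed for the interaction. Its part in these differences was not tested gene by gene.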

How the results depend on the processing

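The number of genes called between G3 and WT after folic acid (337), between G3 and WT after vehicle (425) and for the interaction (560) depended strongly on the settings. With the Y share as a term the counts were 17, 1 and 2 in limma, in that order of comparisons, and 12, 1 and 1 in edgeR's quasi-likelihood test on the whole reads. With the Y share as a term and WT folic acid 1 left out they were 54, 1 and 3. Labelled sex as a term gave 17 after vehicle and 103 for the interaction, and 268 after folic acid. Title series as a term gave 0 after folic acid (623 at an unadjusted p under 0.05), 1 and 3. The fit with the title series told series from genotype after folic acid only through WT vehicle 4, so its 0 cannot decide between them. Without a mean-variance trend the counts were 111, 216 and 292, and with library weights 2851, 1492 and 1548. DESeq2 on whole reads called 778 genes after folic acid and 787 after vehicle. Leaving out the 2 libraries with both Xist and Y-linked RNA gave 567 after folic acid and 959 for the interaction. A fit of the 7 folic acid libraries alone called 74 (25 higher and 49 lower), and with the Y share, an alternative chosen after seeing the data, 0 (1334 at an unadjusted p under 0.05). The other planned settings stayed within 1.5 times the count after folic acid, from 284 to 369, edgeR's 369 being 146 higher and 223 lower (39.6% higher, against 31.2% in limma). Leaving out 1 library gave 27 to 615 after folic acid, 83 to 686 after vehicle and 260 to 928 for the interaction. In the vehicle comparison the count moved by over 1.5 times without G3 vehicle 2, 3 or 4 or any WT vehicle library, and also without WT folic acid 1 (638). For the interaction it did so without any of the G3 folic acid libraries 1 to 3, WT folic acid 2 or 3, or any WT vehicle library. The causes were not tested. Among single genes, Tert was log2 1.38 with title series as a term. Vim, at log2 -0.07, was log2 0.00997 with the Y share, 0.42 with the Y share and WT folic acid 1 left out, 0.33 with library weights, 0.25 with title series as a term, 0.0879 in the folic acid libraries alone with the Y share, and -0.27 (without WT folic acid 3) to 0.33 (without WT folic acid 1) with 1 library left out, 0.14 without G3 folic acid 3. No paired analysis was possible because the replicate numbers follow the order of the samples and pair none of them. At this depth, genes with a few reads such as Tert could not be told apart between groups.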
